A study of Mus musculus with 51 samples.

Results

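The genes described here are 10 immediate early genes named by symbol: Fos, Fosb, Jun, Junb, Egr1, Atf3, Ier2, Dusp1, Zfp36 and Myc. All probe sets annotated to 1 of these symbols alone were taken, whatever their values. This gave 10 probe sets for 9 of the 10 genes, out of 11807 genes and 22626 probe sets on the array. Jun had 2 probe sets and each other gene had 1. Zfp36 was not analysed here, because no probe set carried its symbol alone.

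Levels of mRNA were measured in mammary glands (MG) and blood of female BALB/c and C57BL/6 mice, with 1 array per mouse and 51 arrays in all. From 8 weeks of age, the mice had 4 weekly whole-body X-ray exposures of 1.8 Gy each (HD), 4 weekly exposures of 7.5 cGy each (LD), or 4 weekly sham exposures. Glands were taken 4 hr or 1 month after the last exposure. In BALB/c mice there were 4 HD, 4 LD and 3 sham arrays at 4 hr, and 4 HD, 2 LD and 3 sham arrays at 1 month. In C57BL/6 mice there were 4 HD, 4 LD and 3 sham arrays at 4 hr, and 4 arrays of each at 1 month. Blood came from the heart of untreated mice at 9 weeks of age, 4 per strain. The tissue was the whole 4th gland pair with the inguinal lymph node removed, so each value mixes epithelium, fat, stroma and blood vessels. Luminal epithelial markers averaged 8.41 to 9.58 log2 on sham gland arrays and 4.09 to 5.24 on blood arrays. Levels are deposited log2 RMA values, in which a difference of 1 is a doubling.

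Immediate early genes are transcribed within minutes of a growth factor, neural or stress signal, with no need for new protein. Fos, Fosb, Jun and Junb encode subunits of AP-1, a dimeric leucine zipper transcription factor. Egr1 is a zinc finger factor induced through serum response elements, Atf3 a stress-induced member of the ATF/CREB family, and Ier2 a nuclear protein of the early serum response. Dusp1 encodes a phosphatase that switches off MAP kinases, and Myc a factor that drives ribosome synthesis and cell growth. Their mRNAs decay fast. In GRCm38.p6, Fos lies at chr12:85473890-85477274, Ier2 at chr8:84661331-84662852, Junb at chr8:84976909-84978748, Atf3 at chr1:191170296-191183333 and Myc at chr15:61985341-61990361.

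Promoters of 7 of the 10 genes were in the RefSeq table used (GRCm38.p6). Those of Egr1, Ier2 and Myc were not in it. The 2 genes Fos and Junb were lower after HD over both strains and times (limma, adjusted p under 0.05). They are set beside 2 that did not pass that threshold, Jun and Dusp1, each with 100 bases on the gene's own strand. The Fos, Junb and Jun stretches end at the base before the transcription start. They lie at chr12:85473790-85473889 (plus strand), chr8:84978749-84978848 (minus) and chr4:95052223-95052322 (minus). The Dusp1 stretch covers positions -200 to -101, chr17:26508573-26508672 (minus). Capitals mark the CRE core TGACGT, the CRE-like TGACNTCA or the TATA box TATAAA.
Fos: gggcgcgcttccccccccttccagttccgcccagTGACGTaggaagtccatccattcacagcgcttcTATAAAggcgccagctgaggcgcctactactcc
Junb: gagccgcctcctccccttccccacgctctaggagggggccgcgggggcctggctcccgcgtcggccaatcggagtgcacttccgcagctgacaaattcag
Jun: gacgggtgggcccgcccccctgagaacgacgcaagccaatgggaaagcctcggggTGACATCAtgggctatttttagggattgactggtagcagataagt
Dusp1: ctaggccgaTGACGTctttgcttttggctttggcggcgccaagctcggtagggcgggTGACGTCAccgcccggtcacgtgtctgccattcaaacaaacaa

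Searched on both strands in 300 bases, TGACGT was found in 7.51%, TGACNTCA in 8.83% and TATAAA in 13.6% of the 32851 promoters in the table. A full TGACGTCA holds TGACGT and is counted under both. In Fos the core lay at -66 to -61 and the TATA box at -33 to -28. Jun had TGACATCA at -45 to -38, and Dusp1 had TGACGT at -191 to -186 and TGACGTCA at -143 to -136. Such matches are descriptions of letters, not of bound sites. Fos and Dusp1 both hold TGACGT, and Junb has none of the motifs in the stretch shown. The Dusp1 stretch is the one with its matches, and positions -100 to -1 of Dusp1 hold none of the marked motifs. Atf3, which did not pass over both strains and times either, has the core on the opposite strand at -8 to -3.

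The genes spanned most of the brightness range of the array. Dusp1 lay at a median percentile of 90.1 among all probe sets over the 43 MG arrays, the brighter Jun probe set at 83.0, Egr1 at 82.1, Fos at 74.9, Ier2 at 74.3 and the other Jun probe set at 72.2. Myc lay at 66.3, Atf3 at 43.8, Junb at 42.9 and Fosb at 20.1. Fosb stayed between 4.02 and 4.81 log2 on every MG array, so its values carry little range. The brighter Jun probe set ran from 7.78 to 9.69 and Dusp1 from 8.71 to 11.05 over the same arrays. Percentiles order probe sets by signal, which does not order transcripts by abundance.

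Over both strains and both times, Fos, Ier2, Egr1, Myc and Junb were lower in HD glands than in sham glands. This comparison over all 43 MG arrays was added after the values of the single comparisons had been seen. It called 5 of the 10 probe sets, all of them lower, where 20.1% of all probe sets were called and 11.2% were called lower (limma, adjusted p under 0.05). In bulk tissue, fewer cells of a type and less RNA per cell cannot be told apart.

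Fos averaged 7.90 in HD glands and 8.62 in sham glands, a log2 fold change of -0.73 ± 0.14 (SE; 95% interval -1.02 to -0.43; adjusted p = 0.000463), or 0.605 of the sham level. Ier2 averaged 7.87 in HD and 8.25 in sham glands, with a log2 fold change of -0.38 ± 0.076 (adjusted p = 0.000474). Egr1 averaged 8.51 in HD and 9.15 in sham glands, with a change of -0.64 ± 0.18 (adjusted p = 0.0103). Each of these 3, like Junb below, was lower on average in HD glands in both strains at both times. Myc was lower in all but BALB/c glands at 1 month, at 7.71 after HD and 7.70 after sham. Myc averaged 7.20 in HD and 7.73 in sham glands, with a change of -0.53 ± 0.14 (adjusted p = 0.00784). Junb averaged 5.42 in HD and 5.75 in sham glands, with a change of -0.33 ± 0.11 (adjusted p = 0.0235). Fos, Ier2, Egr1 and Myc passed the threshold whichever of the 29 HD and sham arrays was left out. Junb did not without C57BL/6 sham 4 hr replicate 2 (adjusted p = 0.0519), BALB/c sham 4 hr replicate 1 (0.0573) or BALB/c sham 1 month replicate 1 (0.0617).

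The remaining members did not pass. Atf3 differed by -0.26 ± 0.12 (adjusted p = 0.114), and passed without BALB/c HD 4 hr replicate 4 (-0.32, adjusted p = 0.0402). The brighter Jun probe set differed by -0.01 (95% interval -0.24 to 0.22), the other by -0.13 (-0.31 to 0.05) and Fosb by 0.07 (-0.06 to 0.19). Dusp1 differed by 0.20, with the widest interval, -0.22 to 0.62. At 4 hr every HD array of the other Jun probe set lay narrowly below every sham array in both strains. HD and sham means were 7.64 and 7.96 in BALB/c glands, and 7.64 and 7.93 in C57BL/6 glands. Of all probe sets 9.3% and 6.83% lay apart with HD lower there. The brighter Jun probe set overlapped, with means of 8.72 and 8.69 in BALB/c and 8.41 and 8.77 in C57BL/6 glands. At 1 month both Jun probe sets overlapped. Jun and Fosb encode partners within AP-1, and their intervals lay above the Fos estimate. Differences between members were not tested, and Fosb was dim (median percentile 20.1), with little room to fall.

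**Figure D1:**
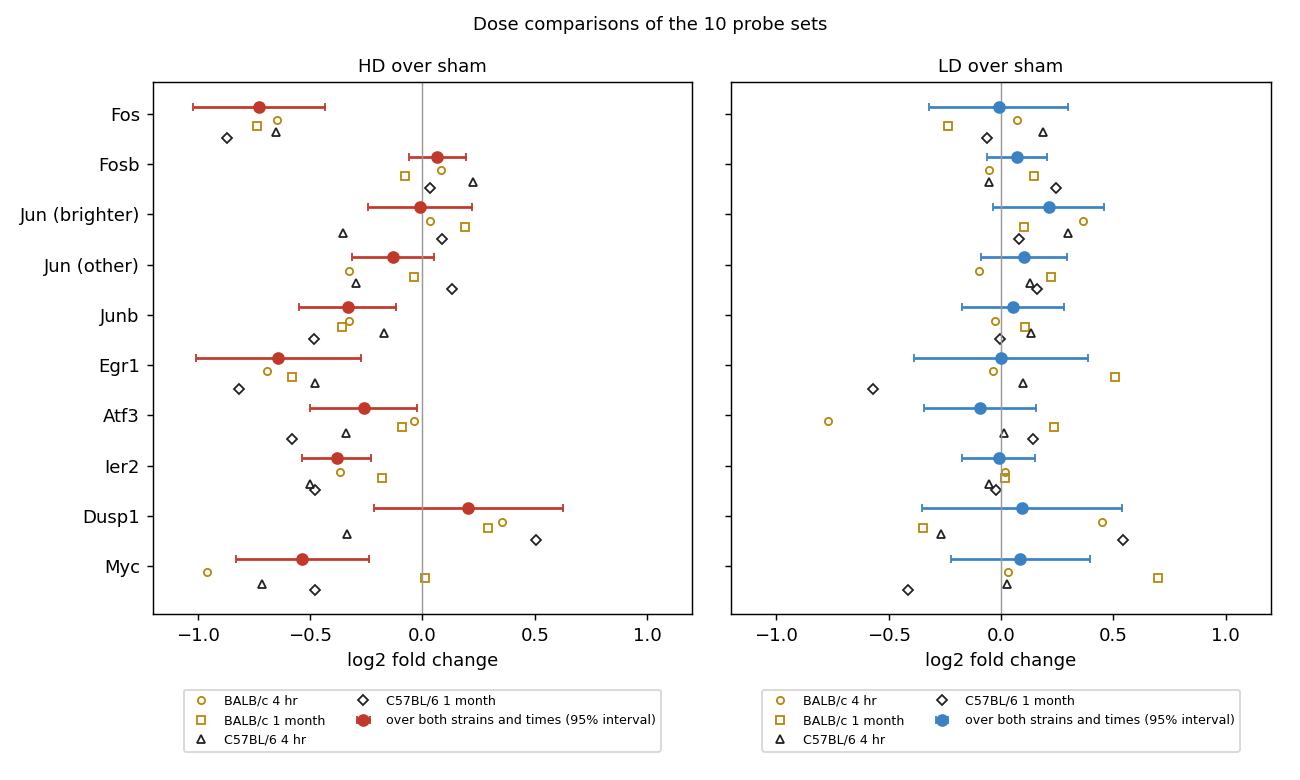
Log2 fold changes of HD over sham (left panel) and LD over sham (right panel) for the 10 probe sets, in each strain and time (open symbols) and over both strains and times (filled circles with 95% intervals). For HD the Fos, Ier2, Egr1 and Junb symbols all lie left of 0, and for LD the filled circles of Fos and Ier2 lie at -0.01.

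Sham arrays were hybridised in plate columns 1 to 5 and irradiated arrays in columns 5 to 12, so treatment and plate position run together. With plate column as a covariate no member was called for HD over both strains and times: Fos differed by -0.85 (adjusted p = 0.353), Ier2 by -0.34 (0.508), Myc by -0.70 (0.441), Junb by -0.46 and Egr1 by -0.11 (0.947). Without the 7 MG arrays that carried transcripts of another tissue, over 2 log2 above the median array, 3 members were called, and Junb (adjusted p = 0.0626) and Egr1 (0.0624) were not. The shares of all probe sets called in these refits are not given, so lost calls are not read as particular to the members.

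After LD no member was called against sham. Over both strains and times 0 of 10 probe sets were called, and 0 had an unadjusted p under 0.05, where 0.0221% of all probe sets were called and 8.64% had such a p (limma). Fos differed by -0.01 (95% interval -0.32 to 0.30) and Ier2 by -0.01 (-0.17 to 0.15). The Ier2 interval does not hold its HD estimate, and neither does that of Fos. Egr1 differed by 0.00 (-0.39 to 0.39) and Myc by 0.09 (-0.22 to 0.40), but these averages join opposite differences at 1 month. Egr1 differed by 0.51 in BALB/c and -0.57 in C57BL/6 glands there, and Myc by 0.70 and -0.42, none past the threshold. In the 4 separate LD comparisons, 0 members were called and 0% of all probe sets were called (limma). Members with an unadjusted p under 0.05 numbered 2 in BALB/c at 4 hr, 1 in BALB/c at 1 month, 0 in C57BL/6 at 4 hr and 1 in C57BL/6 at 1 month, with 9.52%, 6.92%, 4.94% and 12.8% of all probe sets under it. The study's LD thresholds were a log2 fold change past 0.58 in either direction and an unadjusted p under 0.1. In BALB/c glands Atf3 passed them at 4 hr (-0.77) and Myc at 1 month (0.70), as did 1.5% and 1.1% of all probe sets. At those thresholds the paper lists Atf3 among its early BALB/c LD genes and MYC in its BALB/c 1-month LD signature.

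In BALB/c glands at 4 hr, Myc was the 1 member called lower after HD. In all 5 of the 10 probe sets had an unadjusted p under 0.05 (limma), each of them lower, as did 21% of all probe sets in either direction. Myc read 7.11, 6.68, 6.88 and 6.52 in HD glands, against 8.51, 7.38 and 7.37 in sham glands. All HD arrays were below all sham arrays, and 1 sham array stood well above the other two. The log2 fold change was -0.96 ± 0.25 (adjusted p = 0.0344), and 1 of 10 members was called where 5.14% of all probe sets were. The call was lost without HD replicate 2 (adjusted p = 0.0652), replicate 3 (0.0716) or replicate 4 (0.0943), and without sham replicate 1, the high array, which also moved the change to -0.58 (0.159). BALB/c sham 4 hr replicate 1 carried muscle transcripts, at 2.70 log2 over the median array, as did BALB/c HD 4 hr replicate 1 at 6.73. Without the arrays of this kind Myc differed by -0.68 (adjusted p = 0.119), with only the groups compared in the fit it had an adjusted p of 0.122, and with plate column as a covariate one of 0.561. Of 17 luminal epithelial markers 13 fell in the same comparison (median -1.35).

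Fos in the same comparison read 7.98, 7.76, 8.05 and 7.92 in HD glands, against 8.04, 8.58 and 9.10 in sham glands. The sham arrays spread over a log2 unit, and the lowest of them lay among the HD arrays. The change was -0.65 ± 0.19 (adjusted p = 0.057), past the threshold without the other-tissue arrays (-0.93, adjusted p = 0.0313). Ier2 read 8.04, 8.01, 7.84 and 7.64 in HD glands, against a tight 8.28, 8.22 and 8.23 in sham glands. These did not overlap, with a change of -0.36 ± 0.11 (adjusted p = 0.0536) that passed without HD replicate 1 (0.0386).

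Set against LD at 4 hr, BALB/c HD glands had lower Fos, Ier2 and Myc. LD glands read 8.43, 8.86, 8.69 and 8.59 for Fos, all above the HD values given before, and HD over LD was -0.72 ± 0.18 (adjusted p = 0.0209). Ier2 in LD glands read 8.17, 8.18, 8.48 and 8.22, with a change of -0.38 ± 0.098 (adjusted p = 0.0258). Myc in LD glands read 7.95, 7.68, 7.62 and 7.89, with a change of -0.99 ± 0.23 (adjusted p = 0.0159). HD and LD arrays did not overlap for any of these, as for 9.72% of all probe sets with HD lower, and 3 of 10 members were called against 7.42% of all probe sets. Myc passed whichever array was left out. Fos did not without HD replicate 2 (0.0572) or LD replicate 2 (0.0676), and Ier2 did not without HD replicate 3 (0.0749), HD replicate 4 (0.0794), LD replicate 3 (0.0708) or LD replicate 4 (0.0563). Without the other-tissue arrays Fos had an adjusted p of 0.0712 and Ier2 one of 0.0652, and with plate column Myc had 0.0592, Fos 0.172 and Ier2 0.174. With plate column Egr1 passed in their place, at -1.41 (adjusted p = 0.0159) beside -0.66 without it (0.171).

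At 1 month BALB/c HD glands had 0 members called against sham (limma), with 1 at an unadjusted p under 0.05, as for 10.6% of all probe sets, and 0.0177% of all probe sets called. Fos read 8.05, 8.14, 8.25 and 7.75 in HD glands, against 8.63, 9.08 and 8.63 in sham glands. The groups did not overlap, but the change of -0.74 ± 0.19 had an adjusted p of 0.152. Myc read 8.05, 7.30, 7.68 and 7.81 in HD glands, against 7.72, 7.70 and 7.67 in sham glands, so HD arrays lay on both sides of sham. The HD effect on Myc at 1 month less that at 4 hr was 0.97 ± 0.35 (unadjusted p = 0.0129, adjusted p = 0.464), which did not pass. Of all probe sets 0.0707% passed that comparison, and 0 members did (limma), with 1 at an unadjusted p under 0.05 where 8.56% of all probe sets had one. HD against LD at 1 month called 0 members (limma), with 3 at an unadjusted p under 0.05, as for 11.7% of all probe sets, and 0.00884% of all probe sets called. Egr1 read 9.17, 9.10, 8.44 and 8.08 in HD glands, against 10.06 and 9.51 in LD glands, a change of -1.09 ± 0.35 (adjusted p = 0.254).

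In C57BL/6 glands at 4 hr, Fos read 7.48, 7.84, 7.55 and 7.79 after HD, against 8.07, 8.14 and 8.73 after sham. Ier2 read 7.68, 7.39, 7.69 and 7.79 in HD glands, against 8.38, 7.81 and 8.23 in sham glands. For both genes every HD array was below every sham array, although for Ier2 the gap was narrow. Fos changed by -0.65 ± 0.34 (adjusted p = 0.436) and Ier2 by -0.50 ± 0.18 (0.226), neither past the threshold. Myc read 6.50, 6.19, 6.64 and 7.17 in HD glands, against 7.71, 6.73 and 7.58 in sham glands, a difference of -0.71 ± 0.31 (adjusted p = 0.334) with overlap. In all 0 members were called (limma), 3 had an unadjusted p under 0.05, as did 13% of all probe sets, and 0.716% of all probe sets were called. Against LD 0 members were called (limma), 7 had an unadjusted p under 0.05, 6 of them lower in HD, as did 18.3% of all probe sets, and 1.43% of all probe sets were called. LD Fos values at 4 hr were wide in this strain, at 7.70, 9.10, 9.25 and 7.95, and Egr1 read 8.04, 9.29, 9.53 and 7.99 on the same arrays. Both genes were high on LD replicates 2 and 3 and low on replicates 1 and 4.

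At 1 month Atf3 fell in C57BL/6 HD glands. It read 5.52, 5.12, 5.52 and 5.20 in HD glands, against 5.86, 5.95, 6.03 and 5.86 in sham glands, with no overlap. The change was -0.58 ± 0.13 (adjusted p = 0.0415), and 1 of 10 members was called where 0.915% of all probe sets were. Only without sham replicate 4 was the call kept when arrays were left out in turn. It was also lost with only the groups compared (adjusted p = 0.0647), with plate column (-0.19, 0.890) and without the other-tissue arrays (0.0852). Leaving out each of the other 7 arrays, HD replicates 1 to 4 and sham replicates 1 to 3, gave adjusted p from 0.0531 to 0.139 and changes from -0.64 to -0.51 over all 8. In BALB/c glands Atf3 did not follow this order at 4 hr, where it read 5.92, 6.55, 5.20 and 6.77 after HD, 5.5, 5.0, 5.71 and 5.30 after LD, and 5.76, 6.66 and 6.02 after sham. LD arrays were all below sham arrays there, with a difference of -0.77 ± 0.30 (adjusted p = 0.422).

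Fos in C57BL/6 glands at 1 month read 8.05, 8.09, 7.69 and 7.99 after HD, against 8.23, 8.77, 9.38 and 8.92 after sham. The HD arrays were all lower, with a difference of -0.87 ± 0.32 (adjusted p = 0.155). Egr1 read 8.73, 8.62, 8.26 and 9.30 in HD glands, against 9.84, 9.91, 9.60 and 8.81 in sham glands, a difference of -0.81 ± 0.36 (adjusted p = 0.237). Sham replicate 4 was the low array and HD replicate 4 the high one, and these overlapped. Ier2 differed by -0.48 ± 0.17 (adjusted p = 0.144). Junb read 5.72, 4.6, 5.38 and 5.30 in HD glands, against 5.99, 5.75, 5.57 and 5.61 in sham glands. HD replicate 1 lay among the sham arrays and the other HD arrays lay below them. In this comparison 5 members had an unadjusted p under 0.05, as did 17.4% of all probe sets. Fos thus had HD arrays apart from sham arrays in 3 of the 4 strains and times, all but BALB/c at 4 hr. Probe sets that lay apart with HD lower made up 9.3% of the array in BALB/c glands at 4 hr and 4.44% at 1 month, and 6.83% and 5.33% at these times in C57BL/6 glands. HD against LD at 1 month called 0 members (limma) and 0% of all probe sets, with 4 members at an unadjusted p under 0.05, as for 9.18% of all probe sets, among them Atf3 at -0.72 ± 0.13 (adjusted p = 0.132).

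**Figure D2:**
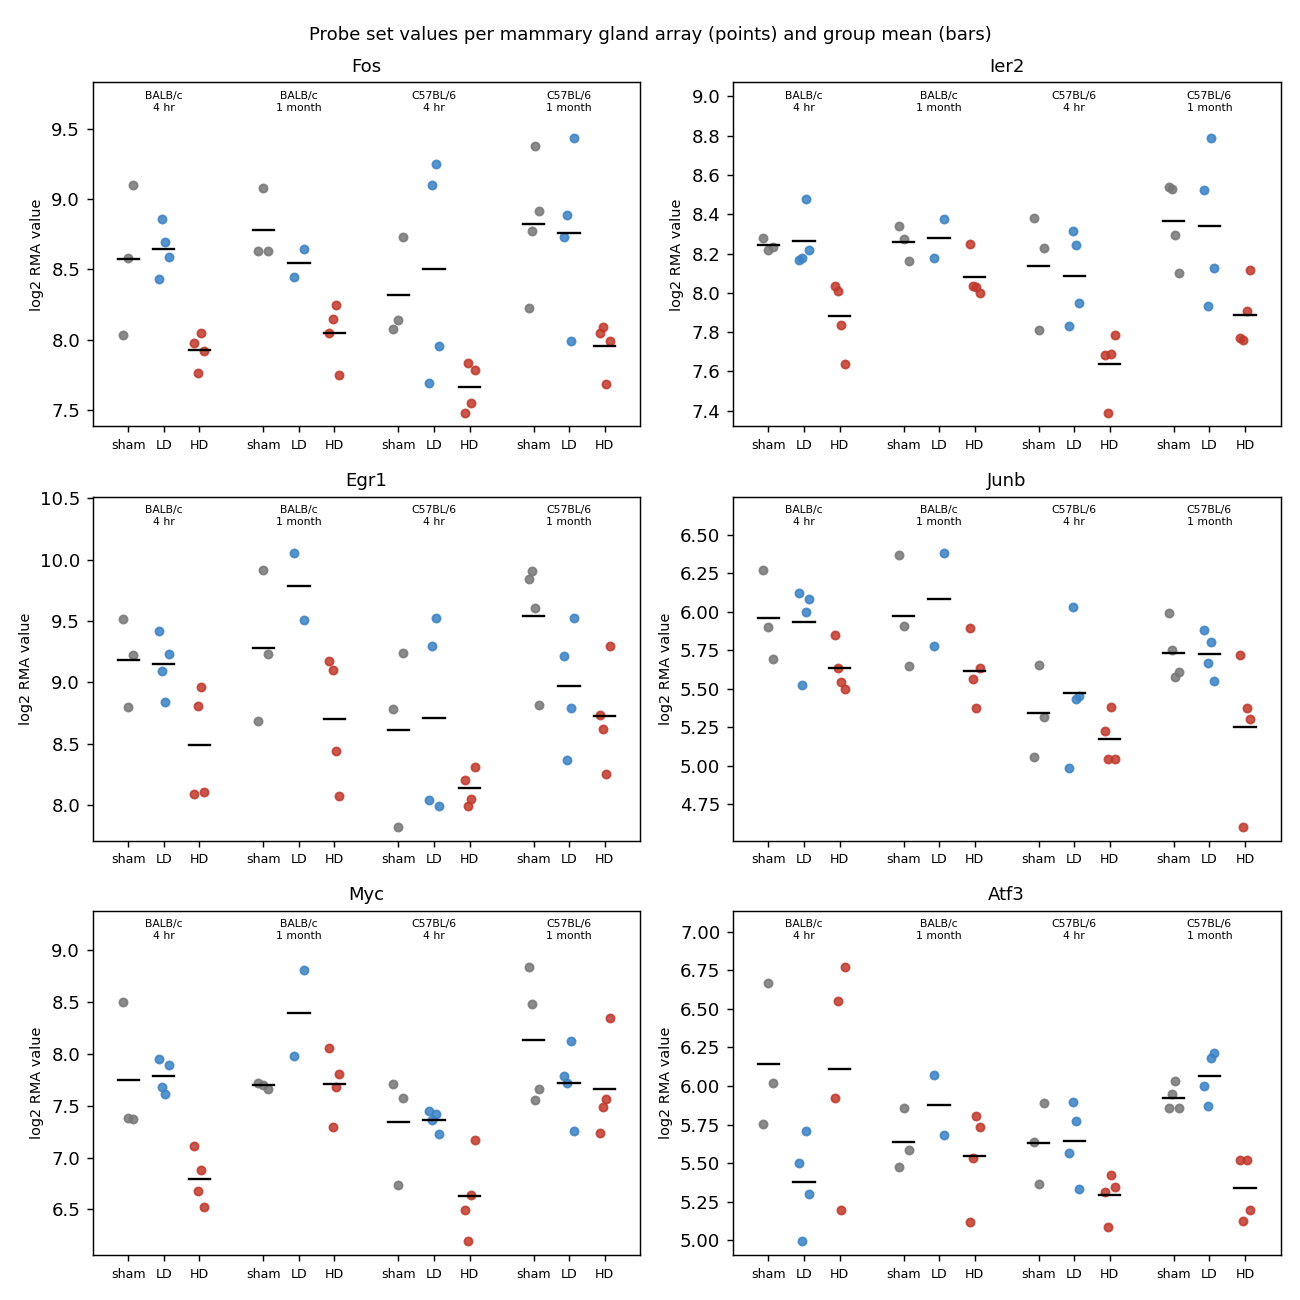
Log2 RMA values of Fos, Ier2, Egr1, Junb, Myc and Atf3 on each MG array (points) with group means (bars), by strain, time and dose. For Fos the HD groups have means between 7.66 and 8.05, below all sham means, which lie between 8.32 and 8.82.

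The 2 strains were not shown to respond differently. The difference between strains of the HD response (BALB/c minus C57BL/6) was 0.01 for Fos at 4 hr (95% interval -0.84 to 0.85) and 0.13 at 1 month (-0.68 to 0.95). Those intervals are wide against the Fos effect itself. In all 4 such comparisons, LD and HD at both times, 0 members and 0% of all probe sets were called (limma). At an unadjusted p under 0.05 there was 1 member for LD at 4 hr and 1 for LD at 1 month, and 0 for HD at either time, where 4.22%, 8.55%, 6.21% and 5.36% of all probe sets had one. In sham glands 0 members differed between strains (limma) and 1 had an unadjusted p under 0.05, where 9.14% and 23.4% of all probe sets did. Junb was 5.96 in BALB/c sham glands and 5.54 in C57BL/6 sham glands, a difference of 0.43 ± 0.14 (adjusted p = 0.0819). The glands of each strain were on a plate of their own, so plate and strain cannot be told apart.

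Sham glands at 1 month and 4 hr differed for 0 members in either strain (limma), and the share of all probe sets called was 0% in BALB/c and 2.84% in C57BL/6. At an unadjusted p under 0.05 there were 0 members in BALB/c and 3 in C57BL/6, where 6.39% and 18% of all probe sets had one. The largest differences were in C57BL/6 glands, Egr1 at 0.93 (adjusted p = 0.20) and Myc at 0.80 (adjusted p = 0.169). Egr1 read 9.84, 9.91, 9.60 and 8.81 at 1 month, against 8.78, 7.82 and 9.24 at 4 hr. The C57BL/6 HD response at 1 month less that at 4 hr had 0 members called (limma) and 0 at an unadjusted p under 0.05, where 0.0398% and 5.1% of all probe sets were.

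Luminal epithelial markers moved with the lower members. Over both strains and times 13 of 17 luminal markers fell in HD glands and 1 rose, with a median log2 fold change of -0.84 beside 0.01 over all probe sets. Of all probe sets 11.2% were called lower and 8.92% higher there. Elf5, a luminal progenitor transcription factor, fell by 1.88, Ehf fell by 2.18, Muc1 fell by 1.11 and Cd24a fell by 0.81 on the log2 scale. In BALB/c glands at 4 hr the mean luminal level ran from 6.77 to 8.00 in HD glands, against 8.41 to 8.87 in sham glands. At 1 month it ran from 7.78 to 8.54 in BALB/c HD glands, against 8.94 to 9.10 in sham glands. In C57BL/6 glands it ran from 7.93 to 8.52 at 4 hr and 8.54 to 8.93 at 1 month after HD, against 8.86 to 8.94 and 8.96 to 9.58 after sham. HD and sham glands did not overlap in any of these. Single comparisons at 4 hr called 13 of 17 in BALB/c and 2 of 17 in C57BL/6 glands, and 1 of 17 in C57BL/6 glands at 1 month. The shares of all probe sets called were 5.14%, 0.716% and 0.915%. Myoepithelial markers had 4 of 8 lower, fibroblast markers 4 of 8 lower and macrophage markers 2 of 12 lower, Cd14 among them at -0.83. White adipocyte markers had 4 of 8 higher. Of 7 erythroid markers 2 were higher, Alas2 (0.94) and Hba-a1 (0.33), as were 2 of 12 hepatocyte markers, Alb (0.74) and Serpina1b (0.90). Of 10 neutrophil markers S100a8 (0.80) and Ngp (0.36) were higher and Lcn2 (-0.80), which epithelium also expresses, was lower. The mean erythroid level ran from 6.60 to 6.73 in C57BL/6 HD glands at 4 hr, against 6.33 to 6.36 in sham glands, with no overlap, and from 6.48 to 6.70 in BALB/c HD glands at 4 hr, against 6.32 to 6.50 in sham glands, with overlap. Endothelial markers had 2 of 10 higher and 1 lower, platelet markers 1 of 7 in each direction and brown adipocyte markers 1 of 6 lower. Beside the 11.2% lower and 8.92% higher over the array, counts of 1 or 2 genes in a list are not set apart. None of the skeletal muscle, B cell, T cell or epidermal and hair markers was called, with 1 at an unadjusted p under 0.05, a T cell marker (limma). Of all probe sets 31.8% had such a p. The part of cell makeup in the lower members was not tested.

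**Figure D3:**
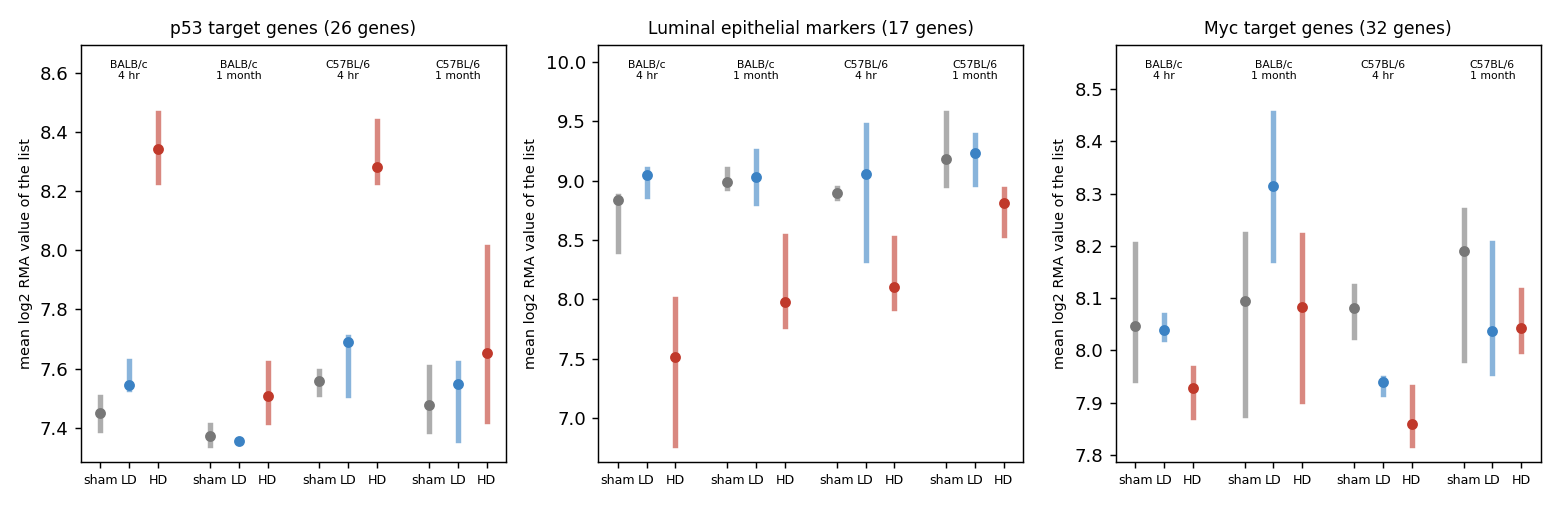
Mean log2 level of each gene list on the MG arrays by strain, dose and time. The luminal epithelial level is lower in all HD groups than in their sham groups, at 6.77 to 8.00 in BALB/c HD 4 hr glands, against 8.41 to 8.87 in sham glands.

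The other gene lists are read against the whole array, where HD against sham over both strains and times called 20.1% of probe sets, 8.92% higher and 11.2% lower, with a median of 0.01. Of 17 other genes of the AP-1 and ATF family 4 were called, all lower in HD glands (median -0.08), a share near that of the array. They were Jund, a less inducible AP-1 subunit (-0.27), Batf3 (-0.33), Atf4, the main factor of the integrated stress response (-0.21), and Mafg (-0.16). Of 49 other immediate early genes 5 were lower and 2 higher (median -0.02), fewer for their number than over the array. Egr2, a relative of Egr1, differed by -1.0, Ier3 by -0.39 and the mRNA decay factor Zfp36l1 by -0.30. Btg2, an antiproliferative gene and known p53 target, was higher by 0.31. Upstream of the members, 3 of 16 SRF and MAPK pathway genes were lower, the receptor Erbb2 (-0.56), the kinase Mapkapk2 (-0.20) and Nras (-0.16), and these were all that were called, again a share near the array's 20.1%.

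Of 19 Myc partners and antagonists 4 were lower and 1 higher, beside 11.2% and 8.92% of all probe sets. Those named by the rule were Mlxip (-0.29), Zbtb17, which encodes the Myc partner Miz-1 (-0.27), Mxi1, a Myc antagonist (-0.23), and Mycbp (0.25). Of 32 Myc target genes 9 were lower and 2 higher, with a median of -0.09, beside the same shares. The nucleolar proteins Nop58 (-0.67), Ppan (-0.38) and Npm1 (-0.35) and the cell cycle kinase Cdk4 (-0.47) were among the lower. In BALB/c glands at 4 hr 2 of 32 targets fell, Nop58 (-0.94) and Cdk4 (-0.70), where 5.14% of all probe sets were called, so this count is near that of the array. In BALB/c LD glands at 1 month Myc differed by 0.70 ± 0.30 (adjusted p = 0.681), and 27 of 32 targets had a positive difference (median 0.30), with 0 called and 7 at an unadjusted p under 0.05 (limma). Over the array 55.3% of probe sets had a positive difference there (median 0.02) and 6.92% had such a p. These values rest on 2 LD arrays.

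Radiation-responsive p53 targets set a scale for these changes. In BALB/c HD glands at 4 hr 17 of 26 rose (median 0.99), among them Ccng1 (1.29), Mdm2, which encodes the ligase that limits p53 (1.10), Ephx1 (1.42) and Polk (1.59). In C57BL/6 HD glands at 4 hr 13 of 26 rose (median 0.74), and at 1 month 1 did, Ephx1 at 0.48. Of all probe sets 2.36% were called higher in BALB/c glands at 4 hr, and 0.376% and 0.451% in C57BL/6 glands at these 2 times. In BALB/c HD glands at 1 month 0 were called and 5 had an unadjusted p under 0.05 (limma). There 0.0177% of all probe sets were called and 10.6% had such a p. Over both strains and times 20 rose and 2 fell, where 8.92% of all probe sets were called higher and 11.2% lower. The members, induced in many acute stresses, had no probe set called higher after HD in any strain or time. Glands were first taken 4 hr after the last exposure, so a rise within minutes that had passed by then could not be seen.

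Among replicates of a group, several members varied more than most of the array. The within-group SD over the 43 MG arrays was 0.583 log2 for Dusp1 (98.0th percentile of all probe sets), 0.508 for Egr1 (97.1), 0.406 for Myc (94.6) and 0.404 for Fos (94.6), where the median probe set had 0.169. Ier2 at 0.207 (70.6) and Fosb at 0.167 (48.7) were nearer to it. The 2 Jun probe sets deviated together, at r = 0.78.

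Across replicates of a group, Fos did not track the other members closely. Of 8 relations of Fos deviations from the group mean with those of another member, none passed after Benjamini-Hochberg adjustment (permutation test, 100000 resamples, two-sided). For Egr1 Pearson's r was 0.43 (p = 0.0606, adjusted p = 0.242) and Spearman's rho was 0.35 (permutation p = 0.0801). Pearson's r was 0.09 within BALB/c glands and 0.56 within C57BL/6 glands, and 0.38 without the 2 arrays farthest in Fos. For Myc r was -0.37 (permutation p = 0.0298, adjusted p = 0.238) with rho -0.32 (permutation p = 0.0681), and r was -0.47 within BALB/c and -0.34 within C57BL/6 glands, and -0.34 without those 2 arrays. For Ier2, which was lower with Fos after HD, r was -0.08. The genes whose deviations were most like those of Fos, of 11807 genes over the 43 arrays, were Apof (r = 0.70), 6330403K07Rik (0.64), Tcirg1 (0.61), and Foxi1, Cep57l1, Kif22, Rev3l and Rhpn2 (0.59 each). Within BALB/c glands these values ran from 0.10 for Kif22 to 0.73 for Apof, with 0.25 for 6330403K07Rik and 0.27 for Tcirg1. The 8 genes are the highest of 11807 and were not tested, and the values within BALB/c come from arrays that ranked them. Egr1 ranked 144th.

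**Figure D4:**
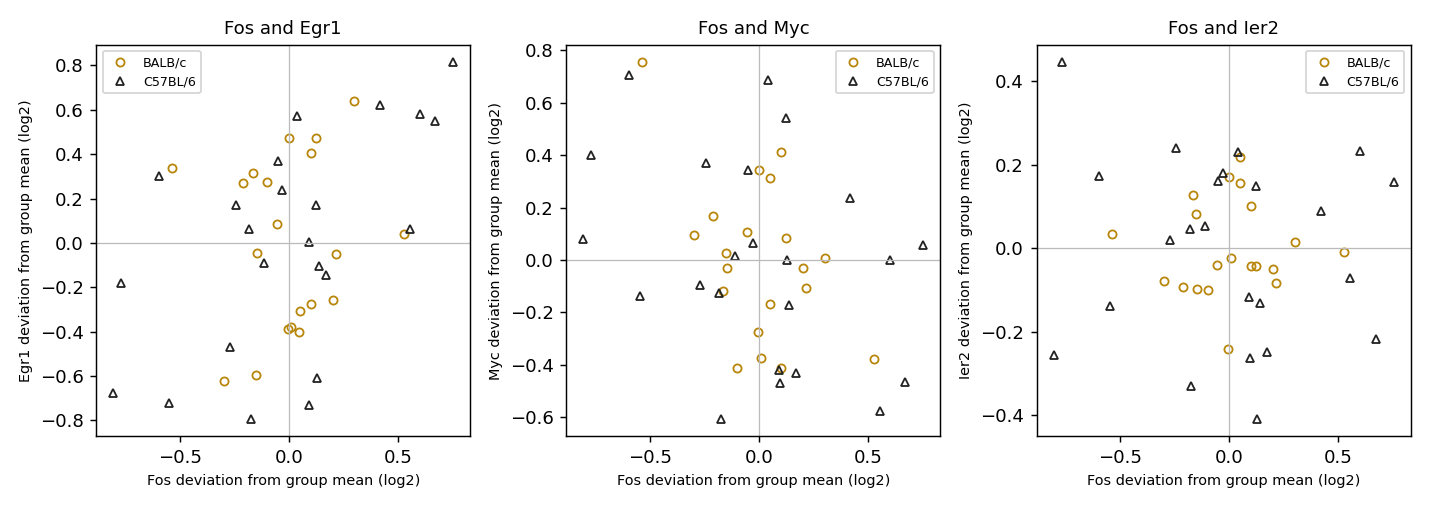
Deviation of Egr1, Myc and Ier2 from their group means against that of Fos on the 43 MG arrays, all in log2 units. Pearson's r over all arrays is 0.43 for Egr1, -0.37 for Myc and -0.08 for Ier2.

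In blood, the order of the members was another one. Dusp1 lay at a median percentile of 95, Ier2 at 88.3, Myc at 86.4 and Fos at 82.2, while the Jun probe sets lay at 43.9 and 48.1 and Fosb at 15.4. Array medians were 4.61 to 4.70 in blood, against 6.16 to 6.36 in MG, so ranks rather than levels are set across tissues. BALB/c blood read 7.65, 6.74, 6.80 and 7.66 for Fos and C57BL/6 blood 8.13, 6.85, 8.67 and 4.92. The strains overlapped, and 1 C57BL/6 array lay far below the rest. That array, replicate 4, carried hepatocyte transcripts at 8.98 log2 over the median array and correlated at 0.81 to 0.83 with the other blood arrays, which correlated at 0.973 to 0.995 with each other. BALB/c blood replicate 2 carried them at 3.21.

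Between strains 0 members differed in blood (limma) and 0 had an unadjusted p under 0.05, where 0.482% of all probe sets were called and 8.31% had such a p. The Fos difference was 0.07 ± 0.76, and -0.51 ± 0.43 (adjusted p = 0.676) without both arrays with hepatocyte transcripts. Egr1 differed by 0.10, and by 0.71 ± 0.33 (adjusted p = 0.384) without them. Ier2, the steadiest of the brighter members, read 7.91, 7.87, 8.10 and 8.02 in BALB/c blood and 7.90, 8.11, 8.19 and 7.56 in C57BL/6 blood. Its difference was 0.03, and -0.06 without both arrays. Myc differed by 0.37, and by -0.14 without them.

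**Figure D5:**
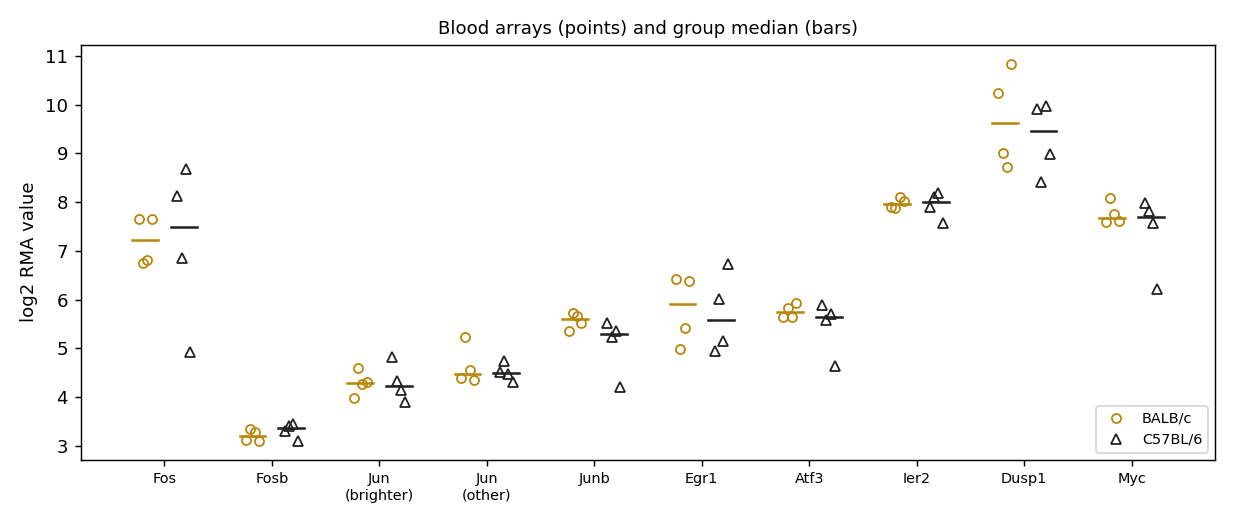
Log2 RMA values of the 10 probe sets in blood of BALB/c (circles) and C57BL/6 mice (triangles), with group medians as bars. C57BL/6 replicate 4 is the low point of Fos (4.92) and Myc (6.21), and the strains overlap for every gene shown.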

How the data were processed

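RNA of MG and blood was measured on HT_MG-430A arrays. The authors deposited log2 values made by RMA, which corrects background, normalizes between arrays and summarizes probes. These values were used unchanged on 51 arrays. The probe table named 18003 of 22626 probe sets with 1 symbol, 287 with several and 4336 with none. limma 3.58.1 in R 4.3.3 was fitted per strain with a mean for each dose and time, as the study's methods compare doses within strains, and on all 43 MG arrays for strain differences of responses and for the comparison over both strains and times. Sham glands and blood had fits of their own. P-values were Benjamini-Hochberg adjusted over all probe sets, with a threshold of 0.05. The number of arrays limits the precision.

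The members and gene lists were chosen with earlier results of these data known. The genes named are all members, the 8 genes most like Fos, up to 4 called genes per list with the smallest p, and markers of cell types that moved. A gene with several probe sets was taken at its brightest. Nothing says whether same-group mice shared litters or cages. The scripts were tested on simulated data.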

Additional observations from a re-analysis of the deposited data

Results flagged for a closer look

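In 100 screened groups of 4 arrays, 9 had an array with a gap to the next above the 95% critical value of Dixon's test, where chance gives about 1 in 20. High arrays were Dusp1 in C57BL/6 HD 4 hr replicate 4 (10.6), Fosb in C57BL/6 LD 4 hr replicate 3 (4.47), Ier2 in BALB/c HD 1 month replicate 1 (8.25), Ier2 in BALB/c LD 4 hr replicate 3 (8.48) and Dusp1 in BALB/c LD 4 hr replicate 3 (11). Low arrays were both Jun probe sets in C57BL/6 HD 1 month replicate 3 (8.60 for the brighter, 7.85 for the other), Dusp1 in C57BL/6 sham 1 month replicate 3 (8.99) and the brighter Jun probe set in BALB/c LD 4 hr replicate 2 (8.86). BALB/c HD 1 month replicate 1 also carried B cell transcripts at 3.31 log2 over the median array.

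In 5 of 80 screened pairs, the irradiated arrays of one group all lay above the sham mean and those of the other all below it. In LD glands at 1 month, BALB/c minus C57BL/6 was 1.08 for the Egr1 response (0.51 in BALB/c, -0.57 in C57BL/6, adjusted p = 0.607), 1.12 for Myc (0.70 and -0.42, adjusted p = 0.465) and -0.89 for Dusp1 (-0.35 and 0.54, adjusted p = 0.746), none past the threshold. In BALB/c LD glands, the response at 1 month less that at 4 hr was 1.01 for Atf3 and -0.79 for Dusp1, differences that were not tested. All of these rest on the 2 BALB/c LD arrays at 1 month.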

How the results depend on the processing

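Alternatives were the study's thresholds, a fit of only the groups compared, plate column, the replicate block, array weights, a trended variance, a filter on dim probe sets, a repeated quantile normalization and leaving out arrays. Those for the comparison over both strains and times were chosen after seeing the data. Of 4484 values, 4334 kept a call in the same direction or, uncalled, shifted by less than their residual SD. Another 95 uncalled values shifted further, 42 values lost and 13 gained a call. Of values with a call in either fit, 0 changed sign. Uncalled values did change sign, such as Fos between strains in blood (0.07, and -0.51 without the arrays with hepatocyte transcripts). Members called for HD against sham in BALB/c glands at 4 hr (1) numbered 2 at the study's thresholds, 2 with array weights, 2 with a trend, 3 with the dim filter, and 0 with only the groups compared, plate column or the replicate block. All probe sets called there numbered 1162, and 321, 26 and 635 under the last 3. In C57BL/6 glands at 1 month (1) they numbered 0 with only the groups compared, plate column, the replicate block or without other-tissue arrays. For HD against LD in BALB/c glands at 4 hr (3) they numbered 1 with plate column (Egr1, none of the 3) and 1 (Myc) without other-tissue arrays. For HD over both strains and times (5) they numbered 2 at the study's thresholds, 0 with plate column and 3 without other-tissue arrays. At the study's thresholds 1 member passed, in place of 0, for LD in BALB/c glands at 4 hr and at 1 month, HD in BALB/c glands at 1 month, HD against LD at 1 month in each strain, and the strain difference of the LD response at 4 hr, and 2 for that at 1 month. In that order 1.5%, 1.1%, 1.34%, 1.68% (BALB/c), 0.57% (C57BL/6), 1.1% and 3.85% of all probe sets passed. For HD against sham the shares were 3.71% in BALB/c glands at 4 hr and 1.89% over both strains and times. For strain in sham glands 1 was called with array weights. Except where given here, shares of all probe sets called in these refits are not shown, so a changed count is not read as particular to the members.

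Leaving out 1 array gave 0 to 2 members for HD in BALB/c glands at 4 hr, 0 to 1 for HD in C57BL/6 glands at 1 month, 2 to 3 for HD against LD in BALB/c glands at 4 hr and 0 to 1 for strain in sham glands. Shares of all probe sets are not shown for these fits either. The relations of Fos with r above 0.3, a limit chosen for this summary, numbered 1, with 0 within BALB/c and 2 within C57BL/6.

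Replicate numbers are shared across groups, but arrays with the same number did not deviate together on average. Their mean correlation ran from -0.128 in blood to 0.061 in BALB/c glands at 4 hr. Each mean rests on 4 to 12 pairs, with single pairs from -0.371 to 0.333, too few to tell whether the number marks a shared processing step. With the replicate block Myc in BALB/c HD glands at 4 hr had an adjusted p of 0.0645, Atf3 in C57BL/6 HD glands at 1 month 0.0561, and Egr1 over both strains and times 0.0604, with 4 members called there.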

Other observations

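In HD glands over both strains and times 8 of 16 clock genes were higher and 3 lower than in sham glands (median 0.23), where 8.92% of all probe sets were higher and 11.2% lower, among them Rora (0.43), Tef (0.47), Per3 (0.57) and Dbp (0.74), an output factor of the clock. After LD 0 of 16 were called and 0 had an unadjusted p under 0.05 (limma). Of 15 glucocorticoid response genes 2 were higher after HD, Zbtb16 at 0.77 and Cdkn1a at 2.06. Cdkn1a is also a known p53 target. Of 15 heat shock genes 1 differed, Hspa1b at -0.54. The counts of these 2 lists are below the 20.1% of all probe sets called.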
